A study of Mus musculus with 36 samples.

Results

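The 9 genes described here encode transcription factors that set the identity of myeloid cells. They were followed in dendritic cells (DCs) grown from mouse bone marrow, which were sorted by surface thrombomodulin (TM). Irf4, Irf8, Batf3, Id2 and Zbtb46 are factors of DCs, and Spi1, Klf4, Cebpa and Cebpb are factors of monocytes and granulocytes. Each gene was taken by its symbol, through the transcript cluster (the probe set that the array assigns to 1 gene) annotated with that symbol alone. All 9 had exactly 1 such cluster, among 19938 genes tested, and no filter on low values was applied.

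A common myeloid progenitor can become a granulocyte, a monocyte or a DC, and the choice depends on the balance of a small set of factors. PU.1, the product of Spi1, is needed by all of these cells. C/EBP alpha opens the granulocyte and monocyte programme, C/EBP beta serves granulocyte production under stress and inflammatory genes of macrophages, and KLF4 drives monocyte formation. IRF8 with BATF3 and ID2 forms the cross-presenting type 1 conventional DC (cDC1), IRF4 acts in type 2 conventional DCs (cDC2) and in DC migration, and ZBTB46 is a factor by which conventional DCs are told apart from monocytes. Cultures grown with GM-CSF hold both DC-like and macrophage-like cells.

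Bone marrow of Balb/c mice, 10 to 12 weeks old, was cultured with 100 ng/ml GM-CSF and harvested on day 6, and this holds for all groups. Treated cultures received soluble human TM (sTM) at 200 nM from day 4. Sorted DCs were separated with magnetic beads by TM into TM+ and TM- DCs, with a stated purity above 93%. Sorted groups with sTM (6 arrays of TM+ DCs, 6 of TM- DCs) are from experiments 2, 3 and 4, and sorted groups without sTM (4 arrays of TM+ DCs, 4 of TM- DCs) from experiments 3 and 4. Unsorted DCs came from sTM-treated (8 arrays) and untreated (8 arrays) cultures of experiments 1, 2 and 3. Arrays are named by experiment and number, so that 3-2 is array 2 of experiment 3. Arrays of 1 group and experiment are biological replicates by their labels. The sources used here do not say if each had its own culture or mouse, so p-values cover only the spread among arrays.

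The labelled cell type was checked with 13 genes that mark conventional DCs. Their summed intensity was 34990 to 48680 in TM+ DCs and 34570 to 53160 in TM- DCs. A few bright genes can dominate such a sum, and without detection calls it does not show that each marker was expressed. Single markers differed, and in the fit described below 6 of the 13 were higher and 5 lower in TM+ DCs. Of all genes 18.6% were higher and 18.7% lower. The activation marker gene Cd83 (log2 fold change -2.19), the homing receptor gene Ccr7 (-1.41) and the costimulatory gene Cd80 (-0.83) were lower, and Ciita (0.82), the activator of MHC class II genes, was higher. Some arrays stood apart from their partners. Over all 35556 clusters the TM- DC arrays 3-1 and 3-2 from sTM-treated cultures correlated at 0.968, against 0.980 to 0.997 for the other pairs of sorted arrays. In experiment 1 the unsorted arrays 1-1 and 1-2 stood apart from 1-3 and 1-4. Correlations across these pairs were 0.948 to 0.953 in sTM-treated and 0.952 to 0.973 in untreated cultures, and within the pairs 0.980 to 0.988. Sorting results over both kinds of culture and the main sTM results of sorted DCs are also given without the TM- array 3-2, and those of unsorted DCs are also given without experiment 1.

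The first comparison was of TM+ with TM- DCs. The difference is the mean of those in sTM-treated and in untreated cultures, on the log2 scale, and calls rest on limma with p-values adjusted by Benjamini and Hochberg over all genes, at 0.05. Most factors of DCs were lower and most factors of monocytes and granulocytes were higher in TM+ DCs. Irf8, Batf3, Zbtb46 and Irf4 fell, Id2 did not pass the test, Spi1, Cebpa and Klf4 rose, and Cebpb fell. Of the 9 members, 3 were called higher, where 18.6% of all genes were, and 5 were called lower, where 18.7% of all genes were. In either direction 8 were called, against 37.3% of all genes. The median log2 fold change was -0.38 for the 5 DC factors and 0.54 for the 4 monocyte and granulocyte factors, beside -0.08 for all genes. The RNA came from bulk cells, so fewer cells of a type and less RNA per cell cannot be told apart.

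**Figure D1:**
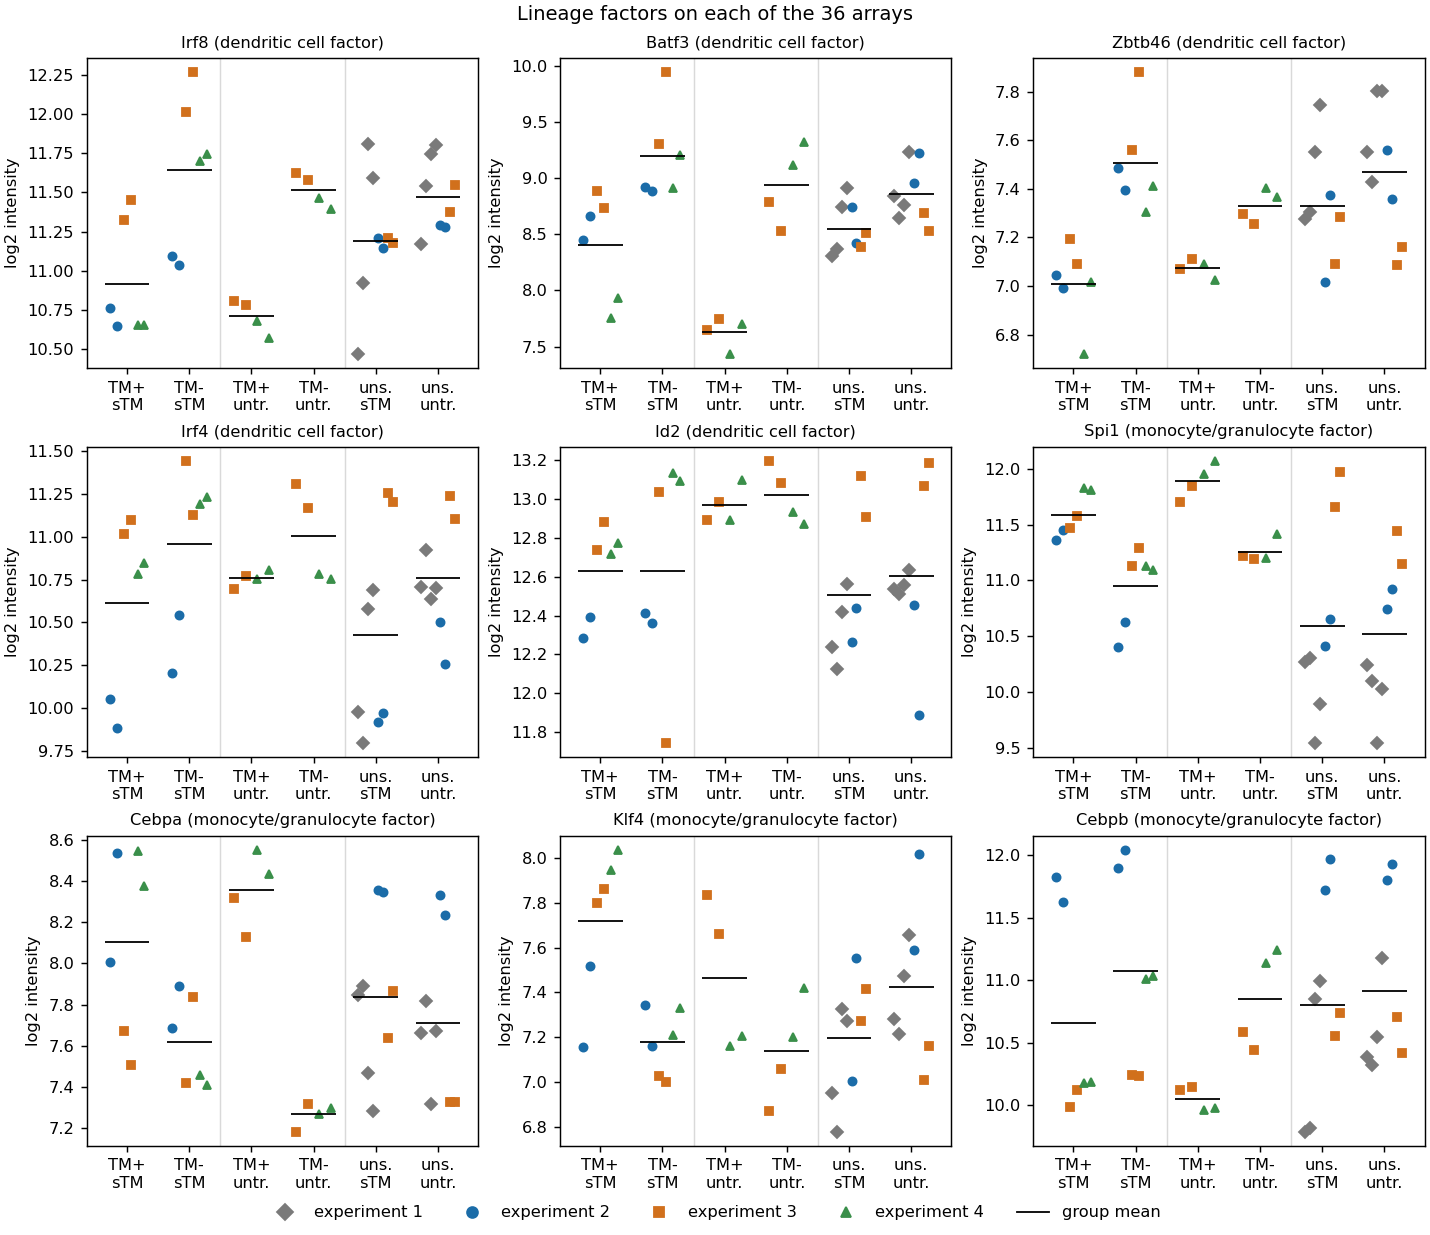
Log2 intensity (vertical axis) of the 9 members on each of the 36 arrays, by group (TM+ or TM- DCs or unsorted DCs, written uns., from sTM-treated or untreated cultures, written untr.), with experiments as symbols and group means as lines. Irf8, Batf3 and Zbtb46 lie lower in TM+ than in TM- DCs in every experiment, Spi1 lies higher, and Cebpb differs more between experiments than between the sorted fractions.

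Irf8 encodes an interferon regulatory factor required by cDC1, plasmacytoid DCs and monocytes. Its log2 intensity was lowest 10.57, median 10.72 and highest 11.45 in the 10 arrays of TM+ DCs, against lowest 11.04, median 11.60 and highest 12.27 in the 10 arrays of TM- DCs. The arrays of the fractions overlapped over the whole set, because both fractions of experiment 3 were high in sTM-treated cultures, but TM+ arrays lay below TM- arrays within each experiment. Untreated TM+ DCs had 10.81, 10.78, 10.68 and 10.57, against 11.62, 11.58, 11.46 and 11.39 in untreated TM- DCs. Irf8 was 1.70-fold lower in TM+ DCs (log2 fold change -0.77, SE 0.10, limma adjusted p = 3.57e-06). The fall was -0.73 within sTM-treated cultures (adjusted p = 0.000266) and -0.80 within untreated cultures (adjusted p = 0.000606). Without the TM- array 3-2 it was -0.73 (adjusted p = 3.87e-06).

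Batf3 encodes a basic leucine zipper protein that pairs with JUN proteins and is required for cDC1. It had the largest fold change of the 9 members. TM+ DCs had lowest 7.43, median 7.85 and highest 8.89, against lowest 8.53, median 9.02 and highest 9.95 in TM- DCs. In untreated cultures TM+ DCs had 7.65, 7.74, 7.43 and 7.70, against 8.79, 8.53, 9.12 and 9.32 in TM- DCs. Batf3 was 2.07-fold lower in TM+ DCs (log2 fold change -1.05, SE 0.15, limma adjusted p = 9.97e-06). The difference was -0.79 within sTM-treated cultures (adjusted p = 0.0042) and -1.31 within untreated cultures (adjusted p = 0.000263). In sTM-treated cultures it was -0.35 in experiment 2, -0.81 in experiment 3 and -1.22 in experiment 4. Without the TM- array 3-2 it was -0.98 (adjusted p = 1.06e-05).

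Irf8 and Batf3 were both called lower, and the 250 bases before their transcription starts are shown because both hold a match to the gamma-activated site, TTCNNNGAA, the sequence bound by STAT proteins. The sequences are those of RefSeq for GRCm38.p6, on the strand of the gene, and capitals mark TTCNNNGAA and TATAAA.
Irf8, chr8:120736108-120736357, plus strand: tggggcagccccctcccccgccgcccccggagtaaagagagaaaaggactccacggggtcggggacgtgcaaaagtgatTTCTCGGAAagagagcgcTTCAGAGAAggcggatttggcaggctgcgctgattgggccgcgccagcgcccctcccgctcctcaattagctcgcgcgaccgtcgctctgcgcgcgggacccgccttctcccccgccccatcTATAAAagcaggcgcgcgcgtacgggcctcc
Batf3, chr1:191098164-191098413, plus strand: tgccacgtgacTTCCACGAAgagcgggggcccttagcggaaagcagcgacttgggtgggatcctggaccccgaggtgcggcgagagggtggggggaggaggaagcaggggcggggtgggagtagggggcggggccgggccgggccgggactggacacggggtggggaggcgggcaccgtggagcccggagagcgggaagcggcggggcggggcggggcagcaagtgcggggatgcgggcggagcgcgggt
In the first of these, TTCTCGGAA lies 171 to 163 bases and TTCAGAGAA 153 to 145 bases before the start, and TATAAA lies at 31 to 26 bases. The Batf3 match, TTCCACGAA, lies 239 to 231 bases before the start. Of 32851 such windows in the table, 7.02% hold TTCNNNGAA and 12.4% hold TATAAA, searched on both strands. Promoters were found for 8 of the 9 members (all but Spi1), in 9 windows, of which 2 hold TTCNNNGAA and 3 hold TATAAA. Irf8 has a further window, at chr8:120738389-120738638, which is not shown and holds no match to either pattern. A match is a run of letters and was not tested as a binding site.

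Zbtb46 encodes a zinc finger protein whose expression separates conventional DCs from other myeloid cells. Its change was smaller than those of Irf8 and Batf3 but the cleanest by array. The 10 TM+ arrays had lowest 6.72, median 7.06 and highest 7.19, and the 10 TM- arrays had lowest 7.26, median 7.40 and highest 7.88. All TM+ arrays therefore lay below all TM- arrays, across experiments and treatments, which was so for 0.973% of all genes. Zbtb46 was 1.30-fold lower in TM+ DCs (log2 fold change -0.38, SE 0.07, limma adjusted p = 0.000142). It was called within sTM-treated cultures (-0.50, adjusted p = 0.000234) and not within untreated cultures (-0.26, adjusted p = 0.0881). Without the TM- array 3-2, which held the highest value, the difference over both cultures was -0.34 (adjusted p = 7.47e-05). That array came from sTM-treated cultures. Without it the difference within untreated cultures stayed at -0.26 but passed (adjusted p = 0.0347).

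Irf4 encodes an interferon regulatory factor of cDC2 that is needed for DC migration and for presentation to helper T cells. Experiments differed more than fractions did. In sTM-treated cultures TM+ DCs had 10.05 and 9.88 in experiment 2, 11.02 and 11.10 in experiment 3 and 10.78 and 10.85 in experiment 4, against 10.21 and 10.55, 11.44 and 11.13, and 11.19 and 11.23 in TM- DCs of the same experiments. TM+ arrays lay below TM- arrays in these 3 comparisons and in untreated cultures of experiment 3, and overlapped with them in untreated cultures of experiment 4. Irf4 was 1.23-fold lower in TM+ DCs (log2 fold change -0.29, SE 0.11, limma adjusted p = 0.0336). The call was close to the threshold. It was lost with no experiment term (adjusted p = 0.218), without experiment 3 (-0.19, adjusted p = 0.192), without experiment 4 (-0.41, adjusted p = 0.0994), and without any one of 9 arrays, where adjusted p was 0.0521 to 0.0659. These were, of TM+ DCs, 2-1 and 2-2 with sTM and 3-1 and 3-2 untreated, and, of TM- DCs, 3-1, 4-1 and 4-2 with sTM and 3-1 and 3-2 untreated. Without the sTM-treated TM- array 3-2 it was -0.31 (adjusted p = 0.0233). Within sTM-treated cultures the difference was -0.34 (adjusted p = 0.0647) and within untreated cultures -0.25 (adjusted p = 0.336).

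Id2 encodes a helix-loop-helix protein without a DNA-binding region that holds E proteins inactive, and conventional DCs require it. TM+ DCs had lowest 12.28, median 12.82 and highest 13.10, against lowest 11.75, median 12.98 and highest 13.19 in TM- DCs. The fractions overlapped. The log2 fold change was -0.03 (SE 0.13, 95% confidence interval -0.30 to 0.25, limma adjusted p = 0.879), so that changes beyond 0.30 in either direction lie outside the interval. The lowest TM- value was that of array 3-2, at 11.75, where its partner 3-1 had 13.04. Without array 3-2 the log2 fold change was -0.13 (adjusted p = 0.164).

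Spi1 encodes PU.1, an ETS factor of all myeloid lineages that activates the genes of growth factor receptors. TM+ DCs had lowest 11.37, median 11.76 and highest 12.07, against lowest 10.40, median 11.16 and highest 11.42 in TM- DCs. In untreated cultures TM+ DCs had 11.70, 11.85, 11.96 and 12.07, and TM- DCs had 11.22, 11.20, 11.20 and 11.42. Spi1 was 1.56-fold higher in TM+ DCs (log2 fold change 0.64, SE 0.08, limma adjusted p = 1.88e-06). The difference was the same size in both kinds of culture, at 0.64 within sTM-treated (adjusted p = 9.03e-05) and 0.64 within untreated cultures (adjusted p = 0.000603). By experiment it was 0.90, 0.31 and 0.71 in sTM-treated and 0.57 and 0.71 in untreated cultures. Within untreated cultures the call was lost without experiment 4 (0.57, adjusted p = 0.123). Without the TM- array 3-2 the difference over both cultures was 0.67 (adjusted p = 3.99e-07).

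Cebpa encodes C/EBP alpha, which is required for granulocyte and monocyte progenitors. It had the largest rise of the 9 members. TM+ DCs had lowest 7.51, median 8.35 and highest 8.55, against lowest 7.18, median 7.42 and highest 7.89 in TM- DCs. In untreated cultures the 4 TM+ arrays had 8.32, 8.13, 8.55 and 8.43, and the 4 TM- arrays had 7.18, 7.32, 7.27 and 7.30. In sTM-treated cultures of experiment 3 the fractions overlapped, with 7.67 and 7.51 in TM+ DCs against 7.42 and 7.84 in TM- DCs. Cebpa was 1.73-fold higher in TM+ DCs (log2 fold change 0.79, SE 0.11, limma adjusted p = 7.94e-06). The difference was 0.49 within sTM-treated (adjusted p = 0.014) and 1.09 within untreated cultures (adjusted p = 7.55e-05). The call within sTM-treated cultures was lost without experiment 2 (0.49, adjusted p = 0.0608) and without experiment 4 (0.22, adjusted p = 0.417). It was also lost with no experiment term (adjusted p = 0.0551). Without the TM- array 3-2 the difference over both cultures was 0.83 (adjusted p = 2.72e-06).

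Klf4 encodes a Krüppel-like factor of monocytes that is also used by a subset of cDC2. TM+ DCs had lowest 7.16, median 7.73 and highest 8.04, against lowest 6.87, median 7.18 and highest 7.42 in TM- DCs. TM+ arrays lay above TM- arrays in 3 of 5 comparisons within an experiment and overlapped with them in sTM-treated cultures of experiment 2 and untreated cultures of experiment 4. Klf4 was 1.35-fold higher in TM+ DCs (log2 fold change 0.44, SE 0.11, limma adjusted p = 0.0035). It was called within sTM-treated cultures (0.54, adjusted p = 0.00741), a call that was lost without experiment 4 (0.45, adjusted p = 0.0711), and not within untreated cultures (0.33, adjusted p = 0.191). Within untreated cultures experiments 3 and 4 went opposite ways, at 0.78 and -0.12. Without experiment 4 the difference passed (adjusted p = 0.0347), but it then rested on experiment 3 alone. Over both cultures the call was lost without experiment 3 (0.14, adjusted p = 0.342), and without the TM- array 3-2 the difference was 0.41 (adjusted p = 0.00585).

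Cebpa and Klf4 were both called higher, and their promoters are shown as well. The sequences come from the same RefSeq table, again for 250 bases before the start on the strand of the gene and with TTCNNNGAA and TATAAA in capitals.
Cebpa, chr7:35119043-35119292, plus strand: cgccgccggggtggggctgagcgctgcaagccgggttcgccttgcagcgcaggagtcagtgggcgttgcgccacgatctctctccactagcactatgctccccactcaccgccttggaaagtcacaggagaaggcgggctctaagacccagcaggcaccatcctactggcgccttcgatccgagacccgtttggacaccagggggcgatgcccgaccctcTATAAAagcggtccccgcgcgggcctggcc
Klf4, chr4:55532476-55532725, minus strand: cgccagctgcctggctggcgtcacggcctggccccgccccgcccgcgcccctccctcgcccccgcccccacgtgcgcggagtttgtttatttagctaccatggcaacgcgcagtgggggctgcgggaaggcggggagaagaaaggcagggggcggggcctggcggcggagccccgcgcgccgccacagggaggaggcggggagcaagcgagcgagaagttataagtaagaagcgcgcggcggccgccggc
Neither holds TTCNNNGAA. The windows of Zbtb46, Irf4 and Cebpb, which were called lower, hold no match to it either, nor does that of Id2. The pattern was thus not shared by the members called lower, and Irf8 and Batf3 were shown because they hold it. TATAAA lies 30 to 25 bases before the start of Cebpa, and is not in the window of Klf4. Further patterns were searched on both strands in all members. The AP-1 site TGANTCA (6.75% of all windows) was in the window of Zbtb46, and the C/EBP pattern TTGCNNAA (9.56%), the PU.1 pattern GAGGAAGT (2.44%), the ETS and IRF element (GGAA and GAAA with 2 free bases between, 2.3%) and the interferon-stimulated response element (GAAA and GAAA with 2 free bases between, 2.98%) were in none of the 9 windows. The last 2 patterns can overlap each other.

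Cebpb encodes C/EBP beta, a factor of inflammatory genes in macrophages and of stress-induced granulocyte production. It was the monocyte and granulocyte factor that moved against the other 3. Its values depended most on the experiment. In sTM-treated cultures TM+ DCs had 11.83 and 11.63 in experiment 2, 9.98 and 10.12 in experiment 3 and 10.18 and 10.18 in experiment 4, against 11.90 and 12.04, 10.24 and 10.23, and 11.01 and 11.03 in TM- DCs of the same experiments. In untreated cultures TM+ DCs had 10.12, 10.14, 9.96 and 9.98, and TM- DCs had 10.59, 10.44, 11.14 and 11.24. TM+ arrays lay below TM- arrays in each of the 5 comparisons. Cebpb was 1.53-fold lower in TM+ DCs (log2 fold change -0.61, SE 0.16, limma adjusted p = 0.00484). The size rested on experiment 4, with -0.84 and -1.22 in sTM-treated and untreated cultures there. Without experiment 4 the log2 fold change was -0.30 (adjusted p = 0.507), and with no experiment term it was not called either (adjusted p = 0.114). The difference was -0.42 within sTM-treated cultures (adjusted p = 0.127) and -0.80 within untreated cultures (adjusted p = 0.0235). The call within untreated cultures was lost without any one of the arrays 4-1 and 4-2 of untreated TM+ or TM- DCs, where adjusted p was 0.0752 to 0.0863. It was also lost without experiment 4 (-0.38, adjusted p = 0.956) and with no experiment term (adjusted p = 0.288). Without the TM- array 3-2 from sTM-treated cultures the difference over both cultures was -0.65 (adjusted p = 0.00262).

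**Figure D2:**
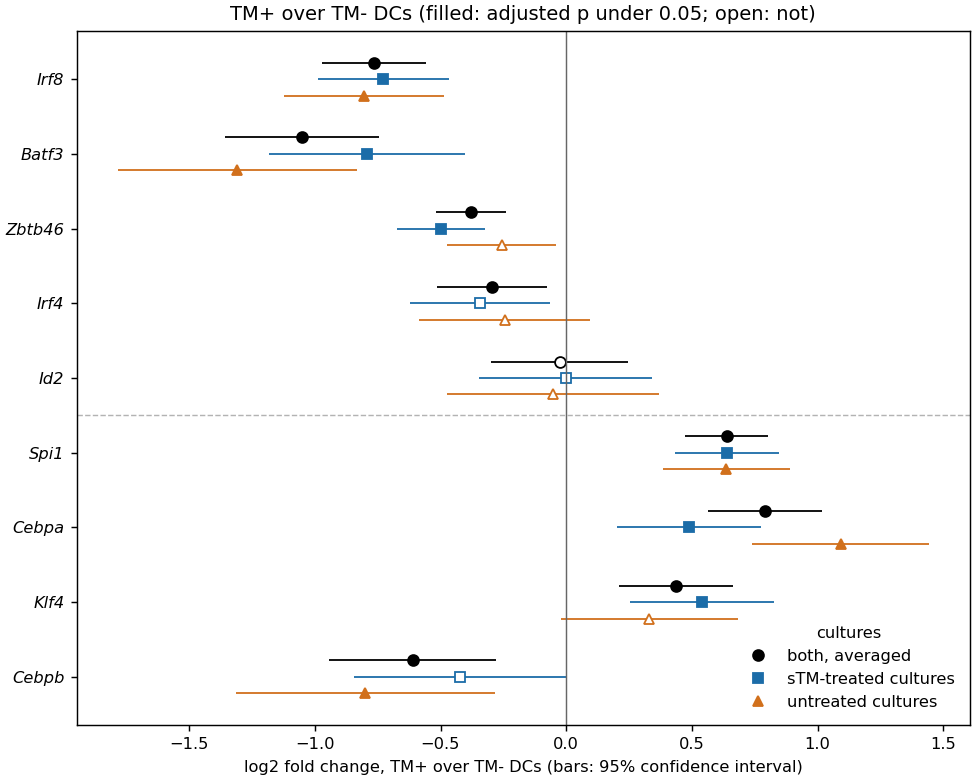
Log2 fold change of TM+ over TM- DCs (horizontal axis) with 95% confidence intervals from limma, for both kinds of culture averaged and for sTM-treated and untreated cultures alone, with filled symbols for adjusted p under 0.05. Of the DC factors above the broken line Irf8, Batf3, Zbtb46 and Irf4 lie left of 0 and Id2 lies next to it, and of the monocyte and granulocyte factors below it Cebpb alone lies left of 0.

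Within sTM-treated cultures 6 members were called. Of these, 3 were higher (Spi1, Klf4 and Cebpa), beside 11.6% of all genes, and 3 were lower (Irf8, Batf3 and Zbtb46), beside 12.4%. Within untreated cultures 5 members were called. Here 2 were higher (Spi1 and Cebpa), beside 13.2% of all genes, and 3 were lower (Irf8, Batf3 and Cebpb), beside 7.93%. Whether the differences in the 2 kinds of culture were unequal is tested by the interaction given with the sTM comparison.

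Sorted DCs of 1 experiment and treatment were set side by side, both TM+ arrays against both TM- arrays, which gave 5 comparisons. TM+ DCs lay below TM- DCs in 5 of 5 for Irf8, Batf3, Zbtb46 and Cebpb, beside 4.58% of all genes, and above in 5 of 5 for Spi1, beside 6.59%. For members short of 5, such as Irf4 and Klf4, the share of all genes was not counted. The size differed between experiments. Irf8 differed by -0.36, -0.75 and -1.07 in experiments 2, 3 and 4 of sTM-treated cultures, and by -0.81 and -0.80 in experiments 3 and 4 of untreated cultures.

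**Figure D3:**
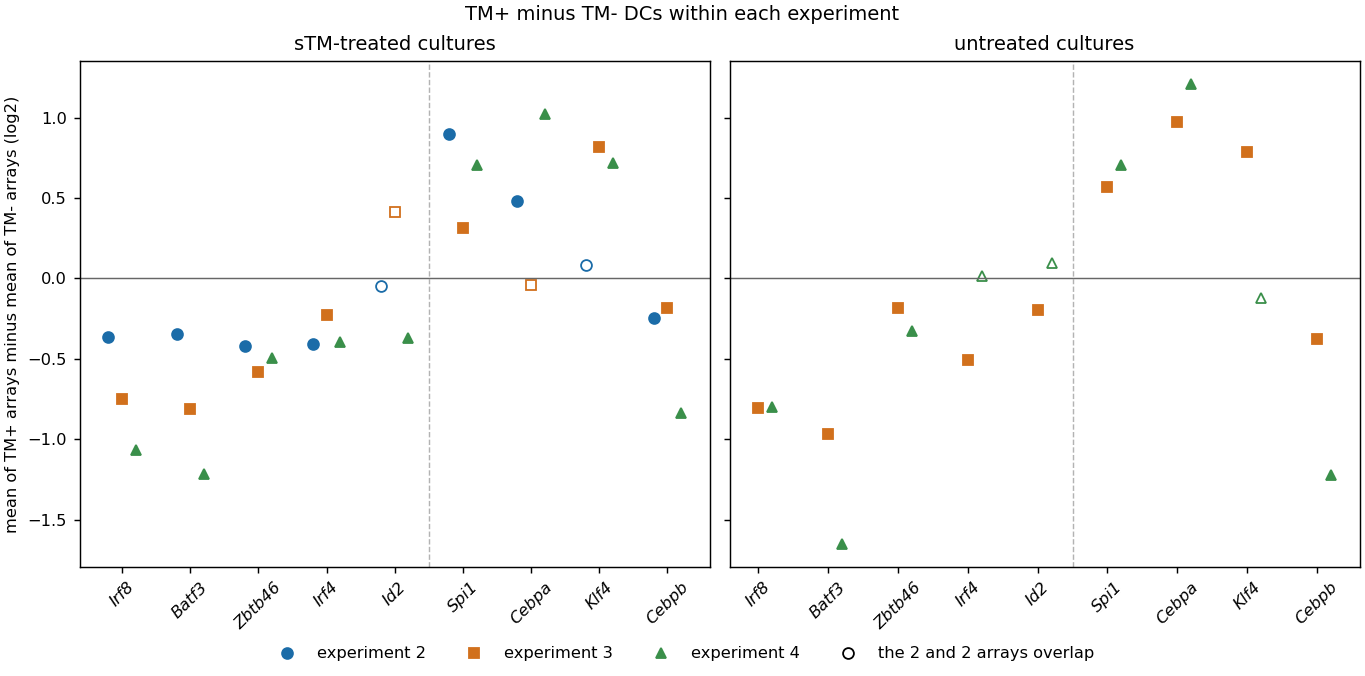
Mean log2 intensity of TM+ arrays minus that of TM- arrays (vertical axis) for each member within each experiment (2 and 2 arrays), in sTM-treated and in untreated cultures, with open symbols where the arrays overlap. Irf8, Batf3, Zbtb46 and Cebpb are below 0 and Spi1 is above 0 in all 5 comparisons, and the Batf3 difference reaches -1.65 in untreated cultures of experiment 4.

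For some pairs of members the contrast was read within an array, as the log2 value of a monocyte and granulocyte factor minus that of a DC factor. Since the 2 genes have different probes, the place of 0 on this scale has no meaning, and only its shift between groups is described. Spi1 minus Irf8 was lowest 0.12, median 0.98 and highest 1.50 in TM+ DCs, against lowest -0.97, median -0.49 and highest 0.02 in TM- DCs. Klf4 minus Batf3 was lowest -1.29, median -0.38 and highest 0.19 in TM+ DCs, against lowest -2.95, median -1.89 and highest -1.47 in TM- DCs. For both differences the 10 TM+ arrays lay above the 10 TM- arrays. For Cebpa minus Irf8 they overlapped, with -3.95 to -2.11 in TM+ DCs against -4.59 to -3.15 in TM- DCs. In unsorted DCs, Spi1 minus Irf8 ran from -2.27 to 0.80, past both ends of the TM- range. These differences were picked after the single genes were known and are given without a test. Each joins a member called higher with a member called lower, so a shift between the fractions was built in. Differences with Cebpb or Id2 were not formed, and the share of other gene pairs that separate in this way was not counted.

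**Figure D4:**
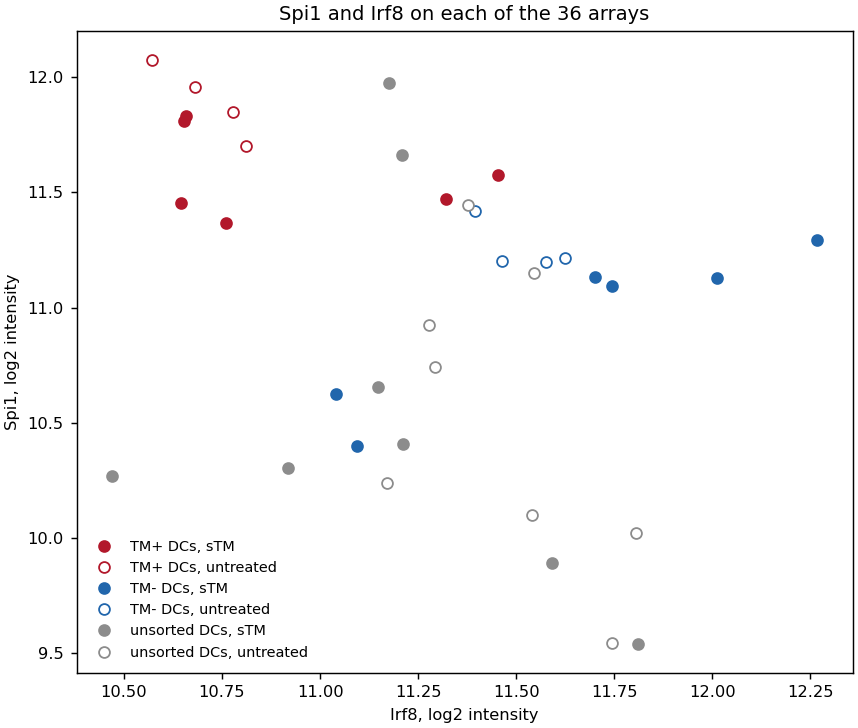
Log2 intensity of Spi1 (vertical axis) against that of Irf8 (horizontal axis) on each of the 36 arrays, coloured by fraction, with filled symbols for sTM-treated and open symbols for untreated cultures. TM+ DCs lie to the upper left of TM- DCs, and unsorted DCs reach down to a Spi1 value of 9.54, below both sorted fractions.

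Other factors of the same lineages were counted from lists. Of all genes 18.6% were higher and 18.7% lower, with a median of -0.08, and the counts are to be read beside these. Among 17 further DC factors, 11 fell and 2 rose in TM+ DCs, with a median of -0.47. The largest changes were those of Stat5a (-1.48) and Stat5b (-1.07), which carry the signal of the GM-CSF receptor, of Ikzf1 (1.11), the Ikaros zinc finger factor, and of Nfil3 (-0.76), a leucine zipper factor of cDC1. Among 10 measured factors of monocytes and macrophages, 5 rose and 2 fell (median 0.23). Here Atf3, a stress-induced repressor of inflammatory genes, changed by -1.67, and Tfec, a helix-loop-helix factor of macrophages, by 1.16. Among 10 factors of granulocytes 5 rose and 0 fell (median 0.29). The terminal granulocyte factor Cebpe rose by 1.33 (SE 0.16, limma adjusted p = 1.01e-06). Of 11 progenitor factors, 5 rose and 1 fell (median 0.12), led by Myc, a driver of growth and division, at 2.29, and the ETS factor Fli1 at 1.09.

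The relatives of the members were counted by family, to be read beside the 18.6% of all genes that were higher and the 18.7% that were lower. In the IRF family, Irf8 and Irf4 fell with Irf7 (-2.62), a factor of interferon production, and Irf9 (-0.51), a partner of STAT proteins in interferon responses. Irf3, which induces interferon beta, rose by 0.40. In all, 4 of 8 measured IRF genes fell and 3 rose. Of 6 measured C/EBP genes 3 rose, led by Cebpe, and 2 fell, Cebpb and Ddit3 (-0.57), a factor of the stress response. Among 10 BATF and AP-1 genes 4 fell and 1 rose. Batf3 had the largest change, ahead of Fosl1 (-0.95) and Junb (-0.89), and Fosb rose by 0.77. Of 7 ID and E protein genes, 3 rose and 1 fell. Id1 rose by 1.15, where Id2 did not pass the test, and the E protein genes Tcf12 (0.74) and Tcf3 (0.45) rose while Tcf4 (-0.72), the factor of plasmacytoid DCs, fell. In the KLF family 3 of 12 rose (Klf2 by 0.85, Klf13 by 0.77, and Klf4) and Klf5 fell (-0.63). In the ETS family 3 of 10 rose, Spi1 among them, and 4 fell, Etv6 (-0.75) and Ets1 (-0.55) with the largest falls. The genes given a value here passed the limma test, with adjusted p of 0.00528 or less.

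Genes that the members are known to act on were counted as well, beside the same shares of all genes. Of 7 genes of cDC1, the cell that needs Irf8, Batf3 and Id2, 3 rose and 0 fell (median 0.09). They were Itgae (1.84), an integrin also found on other cells, Wdfy4 (1.22), a gene of cross-presentation, and Clec9a (0.76), a receptor for dead cells. Of 8 genes of cDC2 and of migration, 4 fell and 3 rose (median -0.37). Cd40 (-1.82), a receptor for helper T cell signals, Ccr7 (-1.41) and the chemokine gene Ccl22 (-1.30) fell, and the lectin gene Mgl2 (1.40) rose. Of 10 receptor and surface genes activated by PU.1, 6 rose and 1 fell (median 0.30), the signal adaptor Tyrobp by 0.79 and the Fc receptor gene Fcgr1 by 0.71, while Csf3r, the granulocyte growth factor receptor, changed by -0.67. Of 7 measured monocyte genes 2 rose and 1 fell (median 0.25). Ccr2, the chemokine receptor by which monocytes leave the bone marrow, rose by 4.04 and Fn1, which encodes fibronectin, by 0.25, while Cd14, a coreceptor for bacterial lipopolysaccharide, fell (-0.87). Of 13 genes that C/EBP factors activate, mostly granule genes but also Csf3r, 7 rose and 3 fell (median 0.35). The largest rises were those of Ngp (2.17), S100a9 (2.16), S100a8 (2.15) and Ltf (1.92). Those that fell were Mmp9 (-1.84), Lcn2 (-0.81) and Csf3r (-0.67).

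Markers of several other cells differed between the fractions. Their counts are to be read beside the 18.6% of all genes that were higher and the 18.7% that were lower. Of 11 neutrophil markers 9 rose and 1 fell in TM+ DCs, and their summed intensity was 1845 to 18760 in TM+ DCs against 1145 to 3758 in TM- DCs. The neutrophil receptor gene Cxcr2 had a log2 fold change of 2.48. All 11 measured markers of dividing cells were higher, led by the cyclin gene Ccna2 (3.65), with sums of 6889 to 24240 in TM+ DCs against 3088 to 5509 in TM- DCs. Of 6 eosinophil markers 5 were higher (864 to 4089 in TM+ DCs against 469.5 to 918.8 in TM- DCs), and of 9 macrophage markers 6 were higher, led by the mannose receptor gene Mrc1 at 2.76 (7460 to 9402 in TM+ DCs against 5732 to 8513 in TM- DCs). Of 6 measured markers of plasmacytoid DCs, 2 were lower, Bst2 (-1.29) and Tcf4 (-0.72), and 1 was higher, Pacsin1 (0.31). Siglech, Ccr9 and Ly6d were not called. The sums were 1353 to 2218 in TM+ DCs against 2353 to 4094 in TM- DCs, and a few bright genes can dominate them. Of 4 monocyte markers 1 was higher (Ccr2) and 1 lower (Cd14). Among mast cell and basophil markers 1 of 9 was lower, and no marker of B cells, of T and NK cells or of erythroid cells was called. The part of these cells in the differences of Spi1, Cebpa, Klf4, Cebpb, Irf8 and the other members was not tested.

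The second comparison asked whether sTM altered the members in sorted DCs. None of the 9 was called, where 3 of 19938 genes were (0.015%). At an unadjusted p under 0.05 there were 3, Batf3, Irf8 and Spi1, beside 8.06% of all genes. The mean of Batf3 was highest in sTM-treated cultures of experiment 3 in both fractions. In TM+ DCs the sTM-treated cultures had 8.89 and 8.74 in experiment 3 and 7.76 and 7.93 in experiment 4, against 7.65 and 7.74, and 7.43 and 7.70, in untreated cultures of the same experiments. In TM- DCs they had 9.30 and 9.95 in experiment 3 and 8.91 and 9.21 in experiment 4, against 8.79 and 8.53, and 9.12 and 9.32, in untreated cultures. The sTM arrays of TM+ DCs lay above the untreated ones in both experiments, as did 20.8% and 23.9% of all genes there, and those of TM- DCs did so in experiment 3 only, as did 23.0% of all genes. The log2 fold change was 0.54 over both fractions (SE 0.16, limma adjusted p = 0.227), and 0.45 without the TM- array 3-2 (adjusted p = 0.334). In TM+ DCs alone, where 170 genes were called (0.853%), it was 0.80 (SE 0.22, adjusted p = 0.0917), a value that passed without array 4-1 (0.94, adjusted p = 0.0284) or 4-2 (0.90, adjusted p = 0.0464) of sTM-treated TM+ DCs and was 0.77 without the TM- array 3-2 (adjusted p = 0.0582). Without experiment 4 Batf3 passed over both fractions (0.98, adjusted p = 0.00228) and in TM+ DCs (1.18, adjusted p = 0.00383). All untreated arrays were then those of experiment 3, with 2 in each fraction, so these values rest on a single experiment for untreated cultures.

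In TM- DCs alone the value for Batf3 was 0.28 (SE 0.22, limma adjusted p = 0.998). It was 0.12 without array 3-2, which had 9.95 where its partner 3-1 had 9.30. In TM- DCs sTM called 0 genes (722 genes, 3.62%, at an unadjusted p under 0.05). Irf8 followed Batf3 at a smaller size. Its log2 fold change was 0.31 (SE 0.11, limma adjusted p = 0.339; 0.27 without the TM- array 3-2), with 0.59 and 0.03 in experiments 3 and 4 of TM+ DCs and 0.54 and 0.29 in those of TM- DCs. Spi1 went the other way, at -0.20 (SE 0.08, adjusted p = 0.525; -0.24 without that array), with -0.25 and -0.20 in TM+ DCs and 0.01 and -0.20 in TM- DCs. The other 6 members had log2 fold changes of -0.27 (Id2) to 0.20 (Klf4), with adjusted p of 0.682 or more. They were -0.12 (Id2) to 0.24 (Klf4) without the TM- array 3-2.

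Within a single experiment many genes have sTM arrays fully above or below untreated arrays, so that such a gap is common. In TM+ DCs of experiment 3, 32.7% of all genes lay below. Cebpa lay below there, with 7.67 and 7.51 in sTM-treated against 8.32 and 8.13 in untreated cultures. Klf4 lay above in experiment 4, with 7.94 and 8.04 in sTM-treated against 7.16 and 7.21 in untreated cultures, as did 23.9% of all genes. Neither did so in the other experiment of TM+ DCs.

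The interaction asks whether the sTM difference in TM+ DCs was unlike that in TM- DCs. No member was called, and 2 of 19938 genes were (0.01%). Cebpa was the one member at an unadjusted p under 0.05, beside 6.15% of all genes. Its sTM difference was -0.31 in TM+ DCs and 0.29 in TM- DCs, a difference of -0.60 (SE 0.22, 95% confidence interval -1.06 to -0.15, limma adjusted p = 0.574). This difference was -0.52 without the TM- array 3-2 (adjusted p = 0.66). For Batf3 the interaction was 0.52 (SE 0.30, 95% confidence interval -0.10 to 1.13, adjusted p = 0.869), and 0.65 without that array (adjusted p = 0.703). The intervals of both hold changes as large as the sorting effects of some members, so that equal responses of the fractions are not shown.

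**Figure D5:**
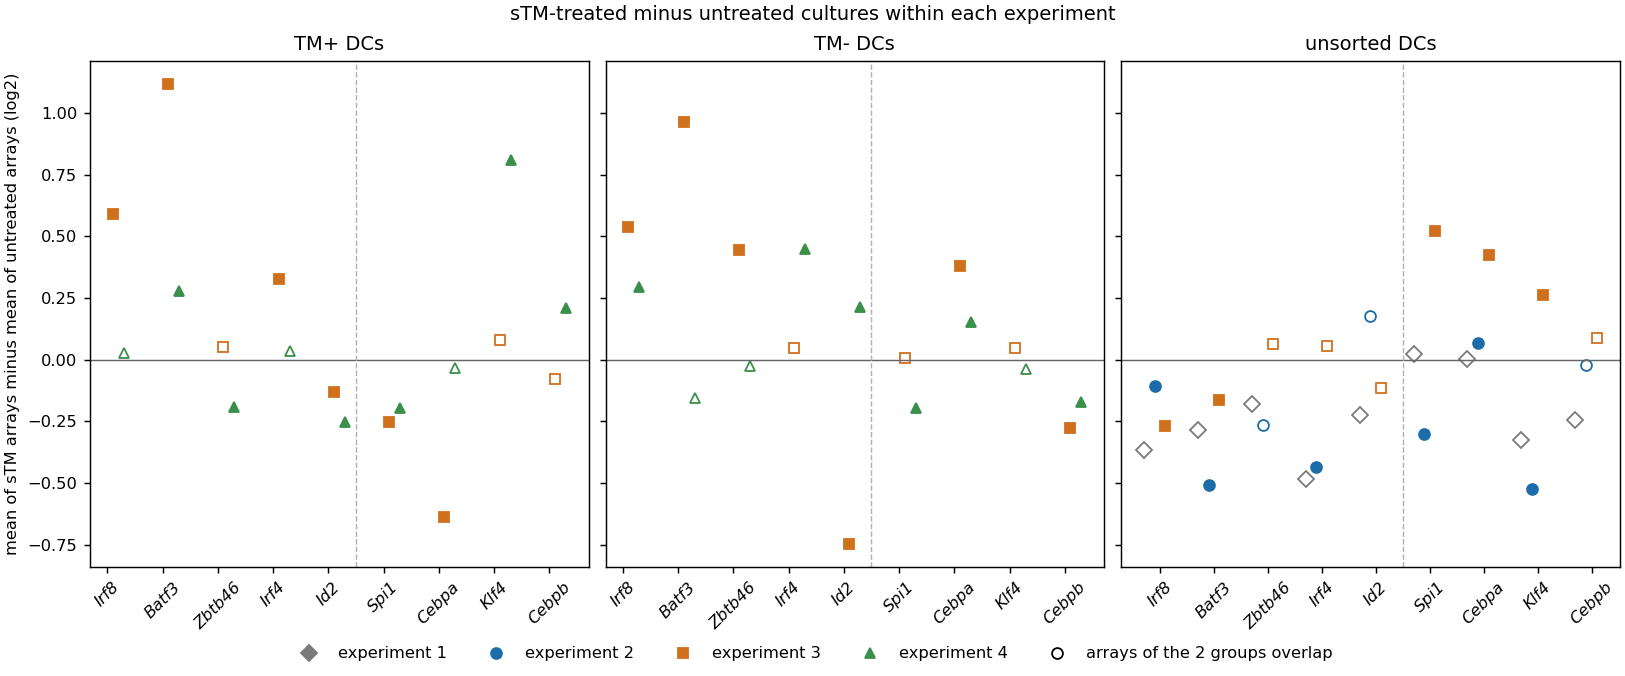
Mean log2 intensity of sTM arrays minus that of untreated arrays (vertical axis) for each member within each experiment, in TM+, TM- and unsorted DCs, with open symbols where the arrays overlap (4 and 4 arrays in experiment 1, 2 and 2 in the others). Batf3 and Irf8 are highest in experiment 3 of both sorted fractions and are below 0 in the 3 experiments of unsorted DCs.

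In unsorted DCs sTM called none of the 9 members and none of the 19938 genes (940 genes, 4.71%, were at an unadjusted p under 0.05 in limma). Irf4 and Batf3 were the members at that level. Batf3 had lowest 8.31, median 8.47 and highest 8.91 in sTM-treated cultures, against lowest 8.53, median 8.80 and highest 9.24 in untreated cultures. The ranges overlapped. Its log2 fold change was -0.31 (SE 0.11, limma adjusted p = 0.936), below 0 in each experiment at -0.29, -0.51 and -0.16. Irf4 had lowest 9.80, median 10.28 and highest 11.26 in sTM-treated cultures, against lowest 10.26, median 10.71 and highest 11.24 in untreated cultures, with a log2 fold change of -0.34 (SE 0.15, adjusted p = 0.999). Its fall came from arrays 1-1 and 1-2 of experiment 1 (-0.93) and from experiment 2 (-0.43), and the difference was -0.04 in arrays 1-3 and 1-4 and 0.06 in experiment 3. Without experiment 1, Batf3 was at -0.34 and Irf4 at -0.19, and neither passed.

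For Batf3 and Irf8 the sTM differences pointed up in sorted and down in unsorted DCs. These fits were made apart and share no arrays, the difference between them was not tested, and none of the values passed. Of the 9 members 7 were below 0 in unsorted DCs, none of them called, where the median log2 fold change of all genes was 0.01. The share of all genes below 0 was not counted.

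Over the 6 groups, neighbours in the order of mean levels were mostly within their spread. Of 45 neighbouring pairs (5 for each member), 6 were further apart than the larger of their SDs. Batf3 was lowest in untreated TM+ DCs at 7.63 ± 0.14 (SD, n = 4), and the next group, sTM-treated TM+ DCs at 8.40 ± 0.46 (n = 6), stood 0.77 above it, past the spread. Unsorted sTM-treated DCs at 8.55 ± 0.22 (n = 8) stood below unsorted untreated DCs at 8.86 ± 0.26 (n = 8), and sTM-treated TM- DCs were highest at 9.20 ± 0.41 (n = 6). The Spi1 level of sTM-treated TM+ DCs, 11.58 ± 0.19, lay past the spread both from untreated TM+ DCs above it at 11.90 ± 0.16 and from untreated TM- DCs below it at 11.26 ± 0.11. For Cebpa the step lay between sTM-treated TM- DCs at 7.62 ± 0.22 and untreated TM- DCs, the lowest group, at 7.27 ± 0.06. For Zbtb46 it lay between untreated TM+ DCs at 7.07 ± 0.04 and unsorted sTM-treated DCs at 7.33 ± 0.24. Irf8 was lowest in untreated TM+ DCs at 10.71 ± 0.11 and highest in sTM-treated TM- DCs at 11.64 ± 0.49, with no single step past the spread. Irf4, Id2, Klf4 and Cebpb had no such step either. The unsorted groups include experiment 1, which has no sorted DCs, and the sorted sTM-treated groups include experiment 2, which has no untreated sorted DCs, so the order and the steps between these groups also carry the experiments.

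Unsorted DCs varied most in Spi1. In sTM-treated cultures the 4 arrays of experiment 1 had 10.27, 10.30, 9.54 and 9.89, those of experiment 2 had 10.41 and 10.65, and those of experiment 3 had 11.66 and 11.97. Untreated cultures showed the same order of experiments, with 10.24, 10.10, 9.54 and 10.02, then 10.74 and 10.92, then 11.44 and 11.15. The experiments did not overlap in Spi1. In experiment 3, both unsorted sTM arrays lay above the sTM-treated TM+ arrays of that experiment (11.47 and 11.58), so that the unsorted value was not between the fractions.

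The genes most like each member over the 36 arrays are given as a description, by Pearson's r of log2 values. The 36 arrays share groups and experiments, so these values also carry both. For Irf8 they were Cd200, an inhibitory surface protein, and Plod2, a collagen-modifying enzyme (0.925 each). For Batf3 they were Fam102b (0.878) and the collagen gene Col5a1 (0.877), and for Zbtb46 the peptide transporter gene Tap1 (0.851) and Olfr535 (0.839). Irf4 was most like Tmem131 (0.963) and Mtmr7 (0.931), and Id2 most like 4932438A13Rik (0.916) and Csf2rb (0.902), a chain of the GM-CSF receptor. Spi1 went with Nfyc (0.948), a subunit of the factor NF-Y, and Atp5g1 (0.945), of the mitochondrial ATP synthase. Cebpa went with Ptgfrn (0.886) and Gfod1 (0.881), and Cebpb with Bri3 (0.912) and Ubxn6 (0.904). Klf4 had no close partner, with Plxdc1 (0.659) and Rasl12 (0.655) the nearest.

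Among the members themselves, over the same arrays, Irf8 and Batf3 had an r of 0.776, Irf8 and Zbtb46 of 0.706, and Batf3 and Zbtb46 of 0.699. Irf4 and Id2 formed another pair at 0.699. Between the 2 groups of factors, r ran from -0.702 (Irf8 and Cebpa) and -0.677 (Zbtb46 and Spi1) up to 0.477 (Id2 and Spi1). Batf3 and Cebpb had 0.412, and Irf4 and Spi1 0.382. Within the DC factors, Id2 had -0.328 with Zbtb46 and -0.306 with Batf3. After each value was taken minus the mean of its group and experiment, the nearest genes were others, such as Atg2a (0.948) for Irf8, Fam214b (0.865) for Batf3 and Map3k11 (0.922) for Spi1.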

How the data were processed

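RNA of 36 samples was hybridized to Affymetrix Mouse Gene 1.0 ST arrays. The authors corrected, normalized and summarized the probes with RMA, as the submitters' processing notes name it, and deposited linear intensities of 35556 transcript clusters. RMA gives arrays normalized together the same distribution, so a common shift of their transcripts cannot be detected. The sources do not say if the 36 arrays shared 1 RMA run, which bears on comparisons and correlations over all arrays. Array medians were 97.0 to 112.0. Detection calls were not used here, the number of arrays limits the precision, and low values were not separated from background.

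From the intensities the log2 was taken. The platform annotation paired 21789 clusters with 1 symbol, 1621 with several and 12146 with none, and taking for each symbol the cluster of highest mean left 19938 genes (19856 matched the RefSeq table by gene ID). Sorted DCs (20 arrays) were fitted with limma 3.58.1 (statmod 1.5.0, R 4.3.3), with sorting, treatment and their interaction and experiment as a random block (correlation 0.396), after the mixed model of the study. Unsorted DCs (16 arrays) were fitted apart (0.375). p-values were adjusted by the Benjamini-Hochberg method over all genes. Standard errors and 95% confidence intervals are limma's, and SDs are over arrays. Python 3.11.15 served for descriptions and figures. The fits were tested on simulated data first.

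The members and the lists (239 memberships with a measured gene, 16 without) were chosen with earlier results of these data known. Named were all members and, per list, up to 4 genes past the test with the largest change, and per member the 2 genes with the highest correlation. In the list of genes that C/EBP factors activate, those that fell were named too, and for plasmacytoid DCs all measured markers were named. Alternatives were a fixed or no term for experiment, a replicate block, a filter on genes below the 25th percentile, all clusters, centring on the 75th percentile, quantile normalization, trended robust variances, a mixed model per gene (sorted DCs, lme4 1.1.37, lmerTest 3.1.3), and omission of each array or experiment. Promoter sequences were those of the RefSeq table for GRCm38.p6.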

Additional observations from a re-analysis of the deposited data

Results flagged for a closer look

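Each member was examined in each of the 6 groups for an array far from the others, which made 54 groups. Such an array was found in 1 group, where chance gives about 1 in 20 groups if the arrays of a group are alike. The arrays of a group came from more than 1 experiment, so that rate is only rough. The group found was Spi1 in untreated TM- DCs. There array 4-2 had a log2 intensity of 11.42 and the other 3 arrays had 11.20 to 11.22. The gap was 0.911 of the range of the group. The array lay below all 4 TM+ arrays of untreated cultures. No member differed between TM+ and TM- DCs in its response to sTM by the interaction test.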

How the results depend on the processing

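Over 2259 member results and alternatives, from 49 settings, 2213 stayed on their side of the threshold, 26 lost and 20 gained the call, and none reversed a called direction. In 67 further cases, counted among the 2213, the sign changed where neither value passed. For sorting, Irf8, Batf3, Zbtb46, Spi1 and Cebpa were called under each of the 32 alternatives.

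Genes called for sorting numbered 4827 with no experiment term and 2469 without experiment 4, against 7438. Centring on the 75th percentile gave 3168 higher and 7174 lower, against 3709 and 3729, and moved the median of all genes to -0.16 (within untreated cultures also to -0.16, against -0.06). Quantile normalization gave 3372 and 3145 and a median of -0.03. No called member changed direction under either.

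For sTM in sorted DCs 3 genes were called, against 112 with experiment as a fixed factor, 13 with dim genes left out, 6 with centring on the 75th percentile, 6 with quantile normalization, 5 with trended robust variances, 68 with the mixed model, 85 without experiment 3 and 454 without experiment 4, where 1 member (Batf3) was called. Leaving out 1 array gave 2 to 17. For the interaction 2 genes were called, against 4 with a fixed factor, 1 with no experiment term, 1 with all clusters, 1 without experiment 2, 300 without experiment 3, 231 without experiment 4, and 1 to 18 without 1 array. For sTM in unsorted DCs, 0 genes were called, against 1 with centring and 0 to 5 without 1 array. The cause was not tested, other than that fewer arrays or genes entered some fits. Without experiment 3 or 4, all untreated sorted DCs came from a single experiment.

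Same-numbered arrays were not taken as pairs, since only 5 of 11 correlations of their deviations were above 0.1. They were -0.249 to 0.306 between TM+ and TM- DCs and 0.0257 to 0.403 between sTM-treated and untreated cultures. With a replicate block, 8 of 9 members were called for sorting, 8 within sTM-treated cultures (6 without it) and 5 within untreated cultures. For sTM, its interaction and unsorted DCs 0 were called. Of all 19938 genes, the block called 3824 higher and 3605 lower for sorting. Within sTM-treated cultures it called 2361 higher and 2394 lower, and within untreated cultures 2726 higher and 1658 lower. The block called 30 genes for sTM in sorted DCs, 1 for the interaction and 53 in unsorted DCs.

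Within sTM-treated cultures, Irf4 passed under 8 alternatives (adjusted p = 0.00841 with a fixed factor, 0.00998 with the mixed model, 0.0179 with the replicate block, 0.0194 with centring, 0.0255 with quantile normalization, 0.0449 with dim genes left out, 0.0352 without the TM- array 2-1 and 0.0443 without experiment 3), and Cebpb under 4 (0.0163 with a fixed factor, 0.0297 with the mixed model, 0.0344 with the replicate block and 0.0495 without experiment 2). Within untreated cultures, Zbtb46 passed with centring (-0.36, adjusted p = 0.0261) and with quantile normalization (-0.28, adjusted p = 0.0409). No member had a further cluster of its symbol alone, so that alternative gave no value. Low intensities, as of Zbtb46, Klf4 and Cebpa, were not separated from background.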
